A study of Mus musculus with 27 samples.

Results

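The 32 genes described here encode the enzymes that build cholesterol and fatty acids, together with the proteins that switch those enzymes on. They were chosen by name and are 32 of the 55367 genes counted in mouse embryos at the morula stage. By role they are 7 genes of the mevalonate pathway (Acat2, Hmgcs1, Mvk, Pmvk, Mvd, Idi1 and Fdps), 3 that carry squalene to lanosterol (Fdft1, Sqle and Lss), 8 that turn lanosterol into cholesterol (Cyp51, Tm7sf2, Msmo1, Nsdhl, Hsd17b7, Ebp, Sc5d and Dhcr7), 5 regulators (Srebf1, Srebf2, Scap, Insig1 and Insig2), the sterol carrier Stard4, 4 genes of fatty acid synthesis and elongation (Acly, Acaca, Fasn and Elovl6) and 4 desaturases (Scd1, Scd2, Fads1 and Fads2).

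The embryos were wild type, were cultured in KSOM, a mineral medium for preimplantation embryos, and were collected at E2.75 (days of embryonic development) in pools of 15 to 20. Polyadenylated RNA was sequenced as 27 libraries, 3 in each of 9 groups. One family of groups was exposed between E2.5 and E2.75 to TSA (trichostatin A, 50 nM), SAHA (vorinostat, 500 nM), A485 (10 uM) or vehicle. TSA and SAHA are hydroxamic acids that inhibit histone deacetylases, and A485 inhibits the catalytic domain of the histone acetyltransferases p300 and CBP. In the other family, embryos were microinjected at E0.5 with siRNA and collected at the same stage. The groups were siComb, whose content the labels do not state, siP300, siKat6a, siKat6b and siControl. All 3 pools of each inhibitor group were set against the same 3 Vehicle pools, and all 3 pools of each siRNA group against the same 3 siControl pools. The design text names them biological replicates, yet separate collection is not described, and p-values therefore measure the spread between these pools, which may be technical.

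Cholesterol is made from acetyl-CoA through mevalonate, squalene and lanosterol, and the genes of the route are switched on together by the transcription factors SREBP1 and SREBP2, the products of Srebf1 and Srebf2. When membrane sterols are plentiful, the Insig proteins hold SREBP and its escort SCAP in the endoplasmic reticulum, and when sterols are scarce SCAP carries SREBP to the Golgi for cleavage. Insig1 is itself a target of SREBP, and the same factors act on genes of fatty acid synthesis such as Fasn and Scd1.

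In what follows, levels are in CPM, counts relative to the library total and scaled within each family by the trimmed mean of M values, given for the 3 libraries of a group in the order of their replicate numbers. A log2 fold change is the edgeR estimate ± its standard error. A gene is said to have risen or fallen where its edgeR quasi-likelihood p, adjusted over all genes tested by the Benjamini-Hochberg method, was under 0.05. In bulk RNA from pools, fewer cells of a type and less RNA per cell cannot be told apart.

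Libraries held between 7557591 and 11988857 counts, and the 32 genes took a mean of 0.134% of them in TSA, 0.115% in SAHA, 0.0829% in A485 and 0.135% in Vehicle. In the siRNA family their share was 0.161% in siComb, 0.130% in siP300, 0.127% in siKat6a, 0.120% in siKat6b and 0.129% in siControl. Of the targeted genes, Kat6a read 14.1, 11.1 and 13.5 CPM in siKat6a libraries, against 19.2, 16.7 and 17.4 CPM in siControl libraries. Kat6b read 70.5, 83.4 and 80.9 CPM in siKat6b libraries, against 106, 118 and 121 CPM in siControl libraries, again without overlap. Neither difference passed the test. The log2 fold change was -0.46 ± 0.20 for Kat6a in siKat6a. For Kat6b in siKat6b it was -0.56 ± 0.27 (edgeR adjusted p = 0.496). Ep300, which encodes p300, read 17.9, 12.2 and 28.9 CPM in siP300 libraries, against 24.1, 24.9 and 30.7 CPM in siControl libraries. These ranges overlapped, so this RNA does not settle the siP300 label, and siP300 is used below as the name the labels give. In siComb libraries Kat6a and Kat6b fell (log2 -0.64 ± 0.20 and -1.03 ± 0.28, edgeR adjusted p = 0.022 and 0.00815) and Ep300 was not called (edgeR adjusted p = 0.722). Of 10 genes that mark the morula, 9 had counts in Vehicle and siControl, and Sox2 was at 0 in every group.

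In control embryos the levels of the 32 genes differed widely. In CPM, Elovl6 stood above Ebp in Vehicle (means of 403 and 202 CPM). The order per kilobase divides by the merged exon bases of all annotated transcripts of a gene, so it depends on that annotation. Per kilobase of exon, Ebp, the sterol isomerase, had the highest level in Vehicle at 87.4 ± 8.93 CPM per kb, above Elovl6, which elongates saturated fatty acids, at 62.6 ± 2.39 CPM per kb (SD, n = 3). Pmvk, a kinase of the mevalonate pathway, followed at 28.0 ± 2.48 CPM per kb in Vehicle, and the ranges of these first 3 genes did not overlap in that group. In siControl the ranges of Elovl6 (66.0 ± 1.57 CPM per kb) and Ebp (62.1 ± 10.6 CPM per kb) overlapped, and Scd2, a desaturase, came next at 31.2 ± 4.81 CPM per kb. From the fifth place down, most neighbours in the order overlapped in both control groups. At the bottom stood Fdps, the farnesyl diphosphate synthase, at 0.121 ± 0.140 CPM per kb in Vehicle, and Fads2, the first desaturase of polyunsaturated fatty acids, at 0.0925 ± 0.0843 CPM per kb in Vehicle. Fdps shares 26.7% of its exon bases with another gene model on the same strand, so its low count is uncertain, and it was not tested in the inhibitor family, where it was too low. Srebf1 (2.08 ± 0.121 CPM per kb) and Srebf2 (1.22 ± 0.307 CPM per kb) stood at places 23 and 27 of 32 in Vehicle.

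Promoters are shown because many of these genes are known as joint targets of SREBP, which binds sterol regulatory elements beside sites for NF-Y and Sp1. The RefSeq promoter table (GRCm38.p6, 250 bases before to 50 after each start) held 25 of the 32 genes. The core TCACNCCAC, searched on both strands, occurred in 1 of these 25, Hmgcs1, against 1.44% of all 27025 genes in the table. The same core with an A before it and C at its open base, the longer sterol element, occurred in 0 of 25 members and 0.0999% of all genes, and the E-box form ATCACGTGA in 0 of 25 members and 0.374% of all genes. The NF-Y pentamer CCAAT occurred in 20 of 25 members and 41.1% of all genes, and the Sp1 hexamer GGGCGG in 21 of 25 members and 38.2% of all genes. A match is a string in this window and not a shown binding site. A gene without an exact match is not shown to lack a sterol element, and members outside the table were not searched. Below are the 250 bases before the start of 5 genes, 5′ to 3′ on the coding strand. Hmgcs1 is shown for its sterol core, Cyp51 as a gene that rose with TSA, SAHA, A485, siComb and siP300, Hsd17b7 and Insig1 as genes that went opposite ways with TSA and A485, and Elovl6 as the gene that fell furthest. Capitals mark TCACNCCAC and CCAAT or their reverse complements, which did not overlap each other.
Hmgcs1 (chr13:119690101-119690350, plus strand): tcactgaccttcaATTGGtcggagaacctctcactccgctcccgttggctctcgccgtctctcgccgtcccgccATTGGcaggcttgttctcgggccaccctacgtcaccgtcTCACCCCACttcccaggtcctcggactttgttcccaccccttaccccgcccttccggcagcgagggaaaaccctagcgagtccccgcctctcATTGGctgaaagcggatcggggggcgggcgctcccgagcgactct
Cyp51 (chr5:4104698-4104947, minus strand): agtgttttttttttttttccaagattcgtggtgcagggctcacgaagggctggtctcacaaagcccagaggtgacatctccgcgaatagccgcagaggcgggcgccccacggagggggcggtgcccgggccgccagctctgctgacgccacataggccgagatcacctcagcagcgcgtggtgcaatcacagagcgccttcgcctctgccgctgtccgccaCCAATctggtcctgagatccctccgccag
Hsd17b7 (chr1:169969206-169969455, minus strand): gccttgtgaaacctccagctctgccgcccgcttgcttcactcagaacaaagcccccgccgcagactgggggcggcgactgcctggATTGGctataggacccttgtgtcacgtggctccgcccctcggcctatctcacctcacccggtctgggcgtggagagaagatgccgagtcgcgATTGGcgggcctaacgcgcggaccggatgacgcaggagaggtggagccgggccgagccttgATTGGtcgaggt
Insig1 (chr5:28071162-28071411, plus strand): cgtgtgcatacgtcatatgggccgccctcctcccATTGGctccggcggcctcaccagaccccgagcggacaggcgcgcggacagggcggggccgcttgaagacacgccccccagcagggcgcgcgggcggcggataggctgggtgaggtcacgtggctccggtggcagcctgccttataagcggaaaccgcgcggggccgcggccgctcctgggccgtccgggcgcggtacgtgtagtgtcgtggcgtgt
Elovl6 (chr3:129532136-129532385, plus strand): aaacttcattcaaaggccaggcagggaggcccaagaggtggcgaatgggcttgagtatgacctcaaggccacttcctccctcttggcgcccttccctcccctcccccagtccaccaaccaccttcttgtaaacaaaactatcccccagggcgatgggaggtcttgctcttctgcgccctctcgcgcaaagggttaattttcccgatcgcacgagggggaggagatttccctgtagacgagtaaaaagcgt
Hmgcs1 held the core on the coding strand and 3 CCAAT matches, Hsd17b7 held 3 CCAAT matches, Cyp51 and Insig1 held 1 each, and Elovl6 held 0.

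With TSA, 14 of 31 tested members rose and 6 fell, or 64.5% of them, against 58.1% of all 18297 genes tested (31.6% rose and 26.6% fell). With SAHA, 6 of 31 rose and 5 fell, or 35.5%, against 34.2% of all genes (20.2% rose and 14% fell). With A485, 6 of 31 rose and 9 fell, or 48.4%, against 45.5% of all genes (21.4% rose and 24.2% fell). The share of members called was near that of all genes for SAHA and A485, while for TSA 45.2% of the members rose and 19.4% fell. The median log2 fold change of the members was 0.56 for TSA, -0.12 for SAHA and -0.33 for A485, beside 0.08, 0.06 and -0.06 over all genes. With DESeq2 size factors the median of all genes moved to 0.22 for TSA.

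Of the 17 cholesterol enzymes tested, 10 rose and 3 fell with TSA, 6 rose and 2 fell with SAHA, and 4 rose and 4 fell with A485. Of the 8 fatty acid enzymes, 3 rose and 3 fell with TSA, 0 rose and 3 fell with SAHA, and 1 rose and 3 fell with A485. The summed level of the 18 cholesterol enzymes was 912, 1099 and 961 CPM in TSA, 657, 648 and 672 CPM in SAHA, 422, 589 and 563 CPM in A485, and 575, 587 and 609 CPM in Vehicle. TSA and SAHA libraries lay above every Vehicle library, while A485 libraries overlapped the Vehicle range. The summed level of the 8 fatty acid enzymes was 312, 299.7 and 284 CPM in TSA, 426, 399 and 366 CPM in SAHA, 220.1, 142 and 143 CPM in A485, and 682, 632 and 628 CPM in Vehicle. Elovl6 alone made up most of that sum in Vehicle. Without it the sum was 265, 241 and 240.3 CPM in TSA, 234, 215 and 197 CPM in SAHA, 211, 132 and 134 CPM in A485, and 264, 228 and 241 CPM in Vehicle, so TSA and SAHA libraries overlapped the Vehicle range and A485 libraries lay below it.

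**Figure D1:**
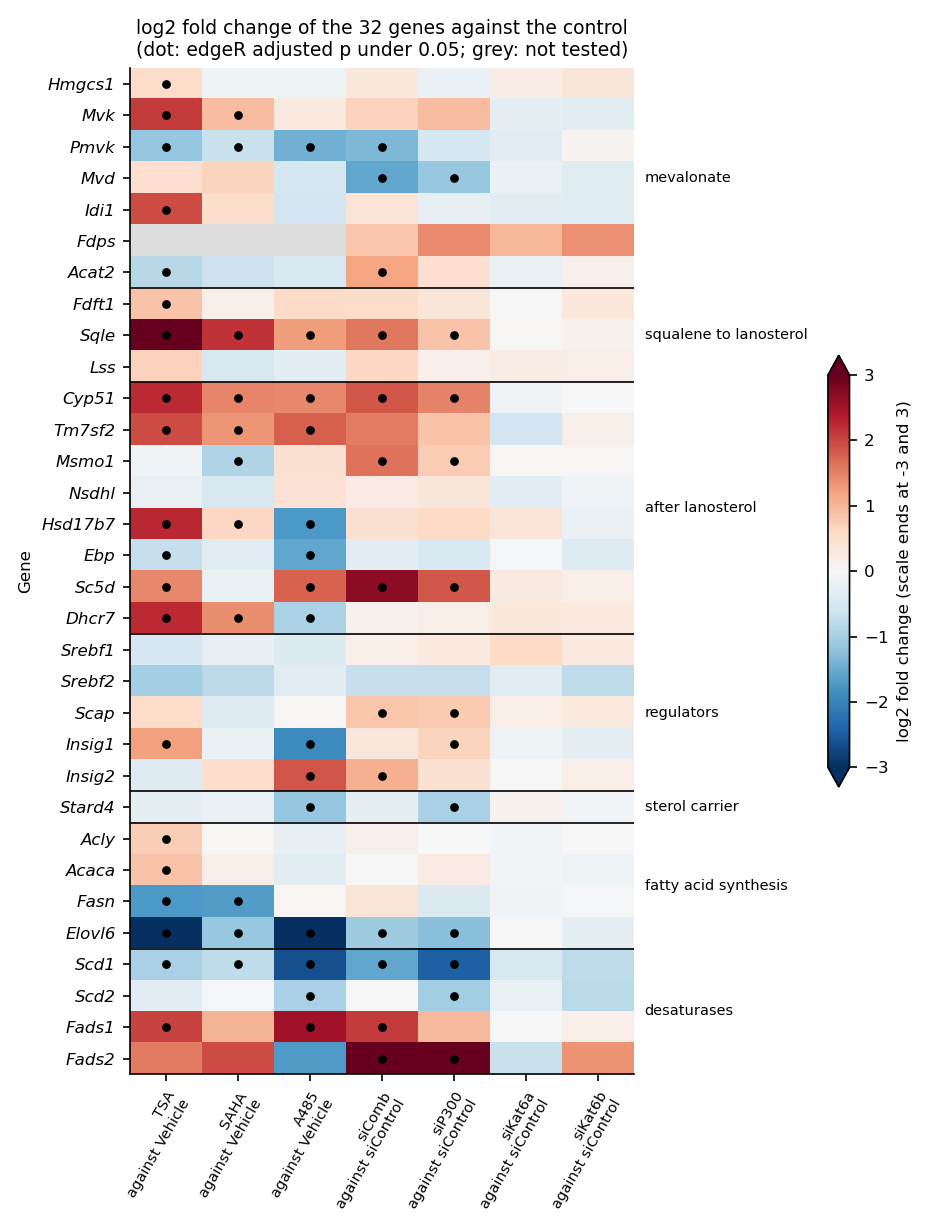
log2 fold change of each of the 32 genes (rows, grouped by role) in the 7 comparisons with a control (columns). Red is higher and blue lower than the control, a dot marks an edgeR adjusted p under 0.05 and grey marks Fdps where it was not tested. Dots fall in 5 columns, with 20 for TSA and 0 for siKat6a and siKat6b, and Elovl6 is blue with a dot in all 5.

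**Figure D2:**
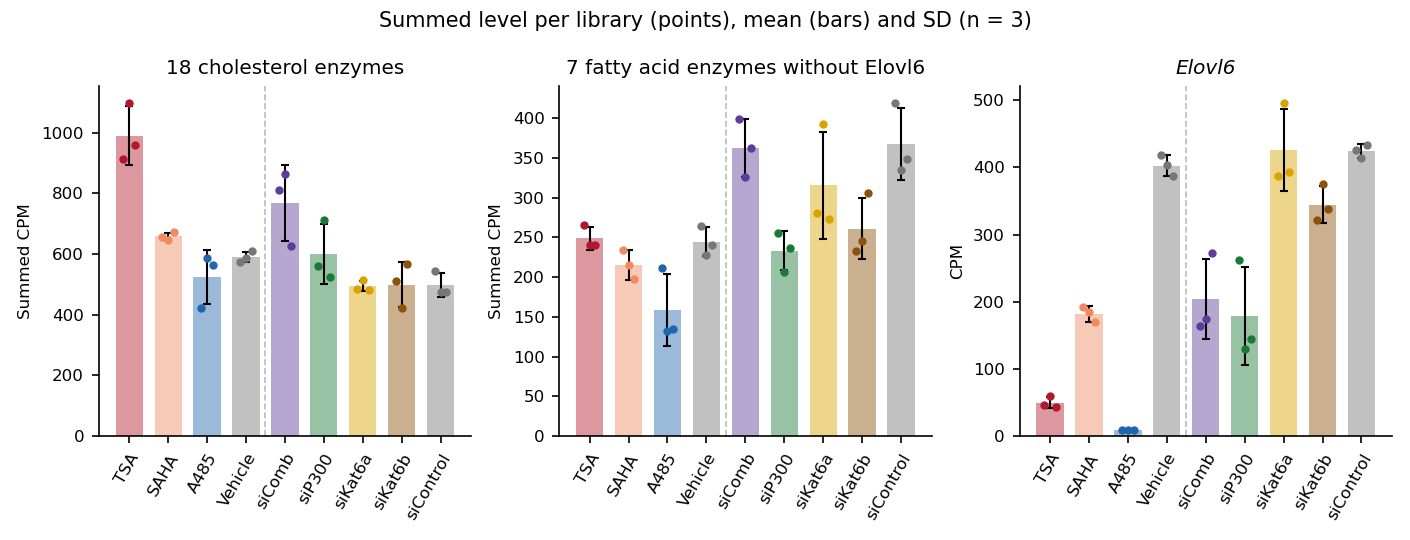
Summed CPM of the 18 cholesterol enzymes (left), of the 7 fatty acid enzymes other than Elovl6 (middle) and CPM of Elovl6 (right) in each library. Points are libraries, bars are means and error bars are SD (n = 3), and the dashed line parts the inhibitor and siRNA families. TSA libraries hold the highest cholesterol enzyme sums of the inhibitor family and A485 libraries the lowest Elovl6 levels of all groups.

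Other measures moved with the inhibitor groups. The share of counts in mitochondrial genes was 2.51 to 3.57% in TSA, 1.61 to 2.16% in SAHA and 2.36 to 2.62% in A485, against 0.997 to 1.20% in Vehicle. The 10 morula markers summed to 99.4 to 126 CPM in TSA (9 with counts), 358 to 479 CPM in SAHA (9 with counts) and 53.3 to 82.7 CPM in A485 (7 with counts, Cdx2 and Tdgf1 also at 0), against 1070.0 to 1156.5 CPM in Vehicle. Blood and immune markers, 5 or 6 of 7 with counts and Hbb-bs at 0, summed to 38.3 to 65.2 CPM in TSA, 22.6 to 25.1 CPM in SAHA and 34.4 to 62.5 CPM in A485, against 16.3 to 20.9 CPM in Vehicle. Cd68 and Hba-a1 made up most of the TSA sums and Cd68 most of the A485 sums, while Ptprc, Lyz2 and Adgre1 were low. Cumulus and granulosa markers summed to at most 7.42 CPM in every inhibitor and Vehicle library. Oviduct and stroma markers, 3 to 5 of 6 with counts and Col3a1 at 0, summed to 8.41 to 23.7 CPM in TSA, 10.3 to 17.3 CPM in SAHA and 2.18 to 3.27 CPM in A485, against 25.7 to 33.9 CPM in Vehicle. Of these sums Pecam1 alone gave 25.3, 33.7 and 29.9 CPM in Vehicle and 2.29, 2.18 and 1.72 CPM in A485. The part of these differences in the results was not tested. MERVL-int, the internal part of an endogenous retrovirus of the 2-cell stage, stood at 8393 to 9742 CPM in TSA, 2181 to 4569 CPM in SAHA and 5.55 to 16.2 CPM in A485. In Vehicle it stood at 12.5 and 14.3 CPM in replicates 1 and 2 and at 245 CPM in replicate 3, and calls lost or gained without Vehicle 3 are named with their gene.

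Sqle, the squalene epoxidase that starts the oxygen-requiring part of the route, had the largest rise of the members called with TSA and with SAHA. Sqle had 129.7, 158 and 138 CPM in TSA, 61.5, 88.3 and 89.00 CPM in SAHA, 35.7, 40.2 and 49.8 CPM in A485 and 19.2, 14.5 and 19.2 CPM in Vehicle. The 4 groups did not overlap, in the order TSA, SAHA, A485 and Vehicle from high to low. Its log2 fold change was 3.01 ± 0.21 (edgeR adjusted p = 7.76e-08) for TSA, 2.17 ± 0.20 (edgeR adjusted p = 3.28e-06) for SAHA and 1.25 ± 0.20 (edgeR adjusted p = 0.000169) for A485. Fdft1, the squalene synthase before it, rose with TSA (log2 0.85 ± 0.23, edgeR adjusted p = 0.00618) and was not called with SAHA (log2 0.18 ± 0.23, edgeR adjusted p = 0.586) or A485 (log2 0.58 ± 0.23, edgeR adjusted p = 0.0523). The A485 value of Fdft1 was positive and passed the threshold in 10 of 16 alternatives, with adjusted p between 0.00864 without A485 1 and 0.0472 with counts halved, and also without Vehicle 3 (adjusted p = 0.0108), with DESeq2 (0.0308) and with limma-voom (0.0141). Lss, which closes squalene epoxide into lanosterol, was not called with any inhibitor (log2 0.70 for TSA, -0.48 for SAHA and -0.33 for A485). Its TSA value passed in 7 of 16 alternatives, with DESeq2 (adjusted p = 0.0102), limma-voom (0.0215), DESeq2 size factors (0.0212), the filter at 5 CPM (0.0165), counts halved (0.0335), the compared groups alone (0.0244) and without TSA 1 (0.0285). Fdft1 shares 18.3% of its exon bases with a gene on the opposite strand, and whether counting used strand is not given in the sources used here.

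In the mevalonate pathway the kinases Mvk and Pmvk, which act in succession, moved apart. Mvk had 24.9, 36.99 and 35.2 CPM in TSA, 13.7, 12.8 and 16.96 CPM in SAHA, 10.9, 8.34 and 8.44 CPM in A485 and 9.43, 8.16 and 5.01 CPM in Vehicle. TSA and SAHA libraries lay above all Vehicle libraries and A485 libraries overlapped them. Mvk rose with TSA (log2 2.10 ± 0.28, edgeR adjusted p = 2.03e-05) and with SAHA (log2 0.94 ± 0.27, edgeR adjusted p = 0.0164), and the SAHA call was lost without Vehicle 3 (adjusted p = 0.0720) or SAHA 3 (adjusted p = 0.0727), or in a fit of all 27 libraries (adjusted p = 0.0585). Pmvk had 24.8, 21.5 and 18.6 CPM in TSA, 25.9, 32.4 and 32.7 CPM in SAHA, 23.5, 17.04 and 11.97 CPM in A485 and 49.2, 51.5 and 43.3 CPM in Vehicle. Every inhibitor library lay below every Vehicle library. Pmvk fell with TSA (log2 -1.15 ± 0.24, edgeR adjusted p = 0.000877), A485 (log2 -1.45 ± 0.24, edgeR adjusted p = 0.000198) and SAHA (log2 -0.66 ± 0.23, edgeR adjusted p = 0.0402), and the SAHA call was lost when any 1 of the 6 libraries was left out, with adjusted p between 0.0605 and 0.144. It was also lost with all 27 libraries (0.091), no filter (0.0606), the filter at 5 CPM (0.0571) and library size alone (0.0549).

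Idi1, the isopentenyl diphosphate isomerase, had 42.7, 34.1 and 40.1 CPM in TSA, 13.4, 16.9 and 13.4 CPM in SAHA, 2.37, 7.98 and 9.99 CPM in A485 and 12.02, 7.802 and 10.4 CPM in Vehicle. TSA and SAHA libraries lay above Vehicle and A485 libraries overlapped it. Idi1 rose with TSA (log2 1.95 ± 0.38, edgeR adjusted p = 0.000518) and was not called with SAHA (log2 0.54 ± 0.37, edgeR adjusted p = 0.284) or A485 (log2 -0.58 ± 0.38, edgeR adjusted p = 0.231). Acat2, the thiolase of the first step, had 19.9, 24.9 and 38.1 CPM in TSA, 21.99, 35.7 and 38.1 CPM in SAHA, 34.1, 27.01 and 43.9 CPM in A485 and 48.8, 38.8 and 59.98 CPM in Vehicle. Its TSA libraries all lay below the lowest Vehicle library. Acat2 fell with TSA (log2 -0.83 ± 0.29, edgeR adjusted p = 0.0221), a call lost without Vehicle 3 (adjusted p = 0.0896), TSA 1 (adjusted p = 0.0938) or TSA 2 (adjusted p = 0.0750), and with DESeq2 size factors (0.0534) or the filter at 5 CPM (0.0575). For SAHA, Acat2 passed, lower, with limma-voom (adjusted p = 0.0349) and the replicate block (0.0448). Hmgcs1, which makes HMG-CoA, rose with TSA (log2 0.56 ± 0.21, edgeR adjusted p = 0.0320), a call lost without Vehicle 2 (adjusted p = 0.117), Vehicle 3 (adjusted p = 0.0708), TSA 1 (adjusted p = 0.0656) or TSA 2 (adjusted p = 0.0838), and with all 27 libraries (0.0893), no filter (0.0986) or library size alone (0.0549). Mvd, the mevalonate diphosphate decarboxylase, was called with no inhibitor, but without Vehicle 2 it passed, higher, with TSA (adjusted p = 0.0306) and SAHA (0.0220), and with limma-voom for SAHA (0.0279). Fdps had counts in every TSA and SAHA library and was at 0 in all 3 A485 libraries, against 0 to 1.16 CPM in Vehicle.

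Of the 8 genes after lanosterol, Cyp51, the lanosterol demethylase, rose with each inhibitor. Cyp51 had 55.3, 52.5 and 55.4 CPM in TSA, 30.99, 31.3 and 32.6 CPM in SAHA, 24.8, 29.7 and 38.9 CPM in A485 and 8.32, 10.7 and 15.4 CPM in Vehicle. Each inhibitor group lay above all Vehicle libraries, and the TSA libraries lay above those of SAHA and A485. For Cyp51 this gave log2 fold changes of 2.24 ± 0.24 (edgeR adjusted p = 2.95e-06) for TSA, 1.46 ± 0.23 (edgeR adjusted p = 0.000319) for SAHA and 1.44 ± 0.23 (edgeR adjusted p = 0.000193) for A485. Tm7sf2, a sterol reductase, had 9.31, 5.25 and 5.696 CPM in TSA, 3.42, 5.65 and 3.97 CPM in SAHA, 9.32, 5.17 and 3.62 CPM in A485 and 1.85, 1.63 and 1.74 CPM in Vehicle. It was low everywhere, yet each inhibitor group lay above Vehicle. Tm7sf2 rose with TSA (log2 1.95 ± 0.43, edgeR adjusted p = 0.00148), A485 (log2 1.79 ± 0.43, edgeR adjusted p = 0.00342) and SAHA (log2 1.32 ± 0.43, edgeR adjusted p = 0.0282), where the SAHA call was lost without Vehicle 1, 2 or 3 or SAHA 2 or 3, with adjusted p between 0.0534 and 0.111, and with all 27 libraries (0.0585). It shares 12.1% of its exon bases with another gene on the same strand.

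Hsd17b7, a keto-sterol reductase, and Dhcr7, which completes cholesterol, rose with TSA and fell with A485. Hsd17b7 had 64.1, 74.2 and 72.5 CPM in TSA, 20.7, 20.96 and 25.99 CPM in SAHA, 5.05, 3.26 and 4.99 CPM in A485 and 12.6, 17.8 and 13.5 CPM in Vehicle. All 4 groups were apart, with Vehicle between SAHA and A485. The log2 fold change was 2.26 ± 0.22 (edgeR adjusted p = 1.32e-06) for TSA, -1.71 ± 0.23 (edgeR adjusted p = 3.67e-05) for A485 and 0.63 ± 0.22 (edgeR adjusted p = 0.0367) for SAHA, and the SAHA call was lost without Vehicle 1 or 3 or any SAHA library, with adjusted p between 0.0578 and 0.144, and with all 27 libraries (0.0752) or no filter (0.0752). Dhcr7 had 169.7, 203 and 152 CPM in TSA, 115, 72.9 and 101 CPM in SAHA, 12.8, 28.1 and 16.7 CPM in A485 and 34.02, 37.4 and 39.3 CPM in Vehicle. Its groups lay in the same order without overlap. Dhcr7 had a log2 fold change of 2.24 ± 0.26 (edgeR adjusted p = 6.32e-06) for TSA, 1.38 ± 0.25 (edgeR adjusted p = 0.000877) for SAHA and -0.95 ± 0.26 (edgeR adjusted p = 0.00789) for A485, the last being lost without A485 1 (adjusted p = 0.0562).

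Sc5d, the lathosterol oxidase, rose with TSA and A485 but was not called with SAHA. It had 69.3, 47.5 and 80.3 CPM in TSA, 15.7, 24.6 and 22.7 CPM in SAHA, 54.01, 105 and 88.7 CPM in A485 and 22.4, 22.1 and 28.2 CPM in Vehicle. Every TSA and A485 library lay above every SAHA and Vehicle library. Sc5d had a log2 fold change of 1.44 ± 0.27 (edgeR adjusted p = 0.000410) for TSA, 1.77 ± 0.27 (edgeR adjusted p = 0.000113) for A485 and -0.20 ± 0.27 (edgeR adjusted p = 0.592) for SAHA. Ebp had 97.8, 190.1 and 90.1 CPM in TSA, 197, 146 and 134 CPM in SAHA, 58.5, 86.1 and 61.99 CPM in A485 and 193, 226 and 188 CPM in Vehicle. The A485 libraries were all below the rest of the family, while TSA 2 and SAHA 1 reached the Vehicle range. Ebp fell with A485 (log2 -1.55 ± 0.27, edgeR adjusted p = 0.000291) and TSA (log2 -0.68 ± 0.26, edgeR adjusted p = 0.0367), and the TSA call was lost without Vehicle 1 (adjusted p = 0.0532), Vehicle 2 (adjusted p = 0.0985), TSA 1 (adjusted p = 0.134) or TSA 3 (adjusted p = 0.144), with DESeq2 (0.0738), DESeq2 size factors (0.0894), the filter at 5 CPM (0.113) or the compared groups alone (0.0869). Msmo1, a sterol demethylase component, had 14.1, 15.7 and 18.1 CPM in SAHA and 26.6, 27.9 and 34.3 CPM in Vehicle, without overlap. It fell with SAHA (log2 -0.89 ± 0.25, edgeR adjusted p = 0.0129), a call lost without Vehicle 3 (adjusted p = 0.0587) or SAHA 1 (adjusted p = 0.0536). With A485 Msmo1 passed, higher, without A485 1 (adjusted p = 0.0198). Nsdhl, its partner in demethylation, was called with no inhibitor.

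**Figure D3:**
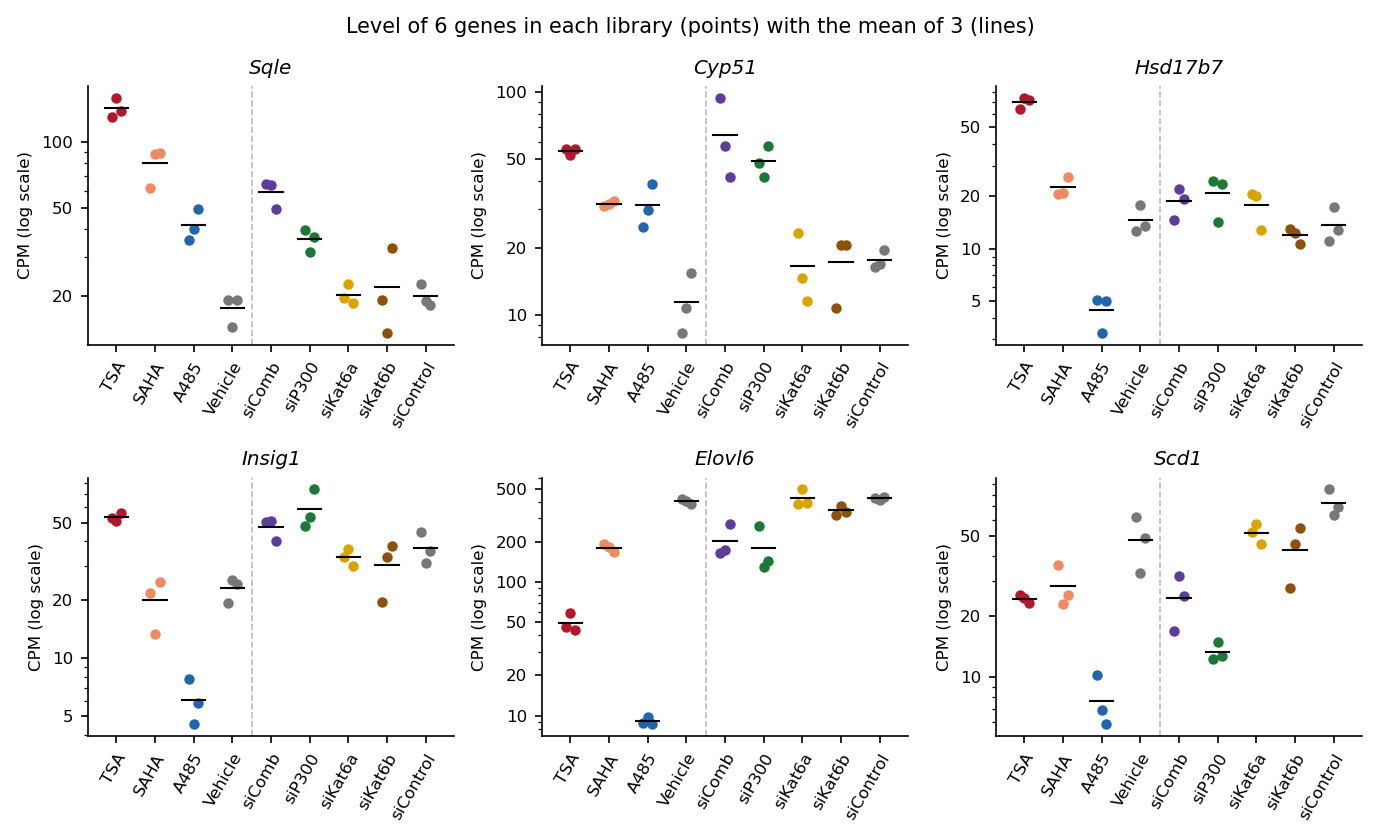
Level of 6 of the genes in each of the 27 libraries, in CPM on a logarithmic axis. Points are libraries, horizontal lines are means of 3 and the dashed line parts the families. Hsd17b7 and Insig1 are above Vehicle in all TSA libraries and below it in all A485 libraries, and Elovl6 is lowest in A485, at 8.61 to 9.79 CPM.

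The transcription factor genes themselves were not called with any inhibitor. Srebf1 had 12.1, 8.13 and 4.66 CPM in TSA, 11.2, 9.48 and 8.81 CPM in SAHA, 11.1, 6.43 and 8.78 CPM in A485 and 11.8, 12.3 and 10.99 CPM in Vehicle. Srebf2 had 4.93, 3.93 and 4.14 CPM in TSA, 7.63, 5.65 and 1.87 CPM in SAHA, 6.63, 6.71 and 7.92 CPM in A485 and 11.1, 6.71 and 8.49 CPM in Vehicle. The TSA libraries of Srebf2 lay below all Vehicle libraries, and the SAHA and A485 libraries of both genes overlapped Vehicle. For Srebf1 the log2 fold change was -0.50 ± 0.33 (edgeR adjusted p = 0.206) for TSA, -0.26 ± 0.33 (edgeR adjusted p = 0.577) for SAHA and -0.42 ± 0.32 (edgeR adjusted p = 0.312) for A485. For Srebf2 it was -1.01 ± 0.42 (edgeR adjusted p = 0.0503) for TSA, -0.79 ± 0.41 (edgeR adjusted p = 0.150) for SAHA and -0.31 ± 0.40 (edgeR adjusted p = 0.564) for A485. The TSA value of Srebf2 passed the threshold in 6 of 16 alternatives, with library size alone (adjusted p = 0.0388), no filter (0.0433), counts halved (0.0481), the compared groups alone (0.0292), all 27 libraries (0.0307) and without Vehicle 2 (0.0463). That of Srebf1 passed in 1, without TSA 1 (adjusted p = 0.0463).

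The Insig genes, whose products retain SREBP, moved in opposite directions to each other with A485. Insig1 had 52.7, 51.2 and 55.9 CPM in TSA, 21.6, 13.3 and 24.7 CPM in SAHA, 7.74, 4.53 and 5.85 CPM in A485 and 19.2, 25.2 and 24.1 CPM in Vehicle. TSA libraries were all above Vehicle, A485 libraries all below it, and SAHA libraries overlapped it. The log2 fold change of Insig1 was 1.22 ± 0.25 (edgeR adjusted p = 0.000838) for TSA, -1.91 ± 0.26 (edgeR adjusted p = 4.7e-05) for A485 and -0.20 ± 0.25 (edgeR adjusted p = 0.562) for SAHA. Insig2 had 11.5, 9.18 and 13.7 CPM in TSA, 18.9, 24.96 and 20.7 CPM in SAHA, 40.6, 66.7 and 57.5 CPM in A485 and 13.5, 10.9 and 20.4 CPM in Vehicle. The A485 libraries stood above all others of the family. Insig2 rose with A485 (log2 1.88 ± 0.27, edgeR adjusted p = 6.91e-05) and was not called with TSA (log2 -0.38 ± 0.27) or SAHA (log2 0.53 ± 0.27), though without Vehicle 3 it passed, higher, with SAHA (adjusted p = 0.0351). Scap was called with no inhibitor, and Stard4, a carrier of cholesterol between membranes, had 14.4, 15.5 and 17.6 CPM in A485, against 36.2, 27.4 and 41.8 CPM in Vehicle. It fell with A485 (log2 -1.15 ± 0.22, edgeR adjusted p = 0.000597), without overlap.

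Elovl6, which lengthens palmitate to stearate, fell with each inhibitor and was the member with the smallest adjusted p for A485 and TSA. Elovl6 had 46.3, 59.02 and 43.5 CPM in TSA, 192, 184 and 169 CPM in SAHA, 8.84, 9.79 and 8.61 CPM in A485 and 418, 403 and 387 CPM in Vehicle. The 4 groups were fully apart, in the order Vehicle, SAHA, TSA and A485 from high to low. Elovl6 had a log2 fold change of -5.47 ± 0.18 (edgeR adjusted p = 9.9e-11) for A485, -3.02 ± 0.16 (edgeR adjusted p = 9.26e-09) for TSA and -1.15 ± 0.15 (edgeR adjusted p = 4.41e-05) for SAHA. Fasn, the fatty acid synthase that makes palmitate, had 7.39, 4.197 and 9.06 CPM in TSA, 8.89, 6.83 and 5.51 CPM in SAHA, 35.1, 13.6 and 22.6 CPM in A485 and 28.7, 17.4 and 22.1 CPM in Vehicle. TSA and SAHA libraries all lay below the A485 and Vehicle libraries, and A485 libraries spanned the Vehicle range. Fasn fell with TSA (log2 -1.72 ± 0.37, edgeR adjusted p = 0.00129) and SAHA (log2 -1.68 ± 0.37, edgeR adjusted p = 0.00307) and was not called with A485 (log2 0.06 ± 0.35). Acly, which makes cytosolic acetyl-CoA from citrate, and Acaca, which makes malonyl-CoA, rose with TSA (log2 0.73 ± 0.18, edgeR adjusted p = 0.00363 and 0.86 ± 0.28, edgeR adjusted p = 0.0165) and were not called with SAHA or A485. The Acaca call was lost without TSA 1 (adjusted p = 0.0974).

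Scd1, which places the first double bond in saturated fatty acids, had 25.6, 24.7 and 23.3 CPM in TSA, 36.00, 23.1 and 25.4 CPM in SAHA, 10.3, 6.89 and 5.85 CPM in A485 and 62.2, 32.7 and 49.1 CPM in Vehicle. TSA and A485 libraries lay below every Vehicle library, while SAHA 1 exceeded Vehicle 2. Scd1 fell with A485 (log2 -2.64 ± 0.29, edgeR adjusted p = 5.52e-06), TSA (log2 -0.97 ± 0.27, edgeR adjusted p = 0.00703) and SAHA (log2 -0.77 ± 0.27, edgeR adjusted p = 0.0386), and the SAHA call was lost without Vehicle 1 or 3 or SAHA 2 or 3, with adjusted p between 0.0902 and 0.187, and with the filter at 5 CPM (0.0532). Its close relative Scd2 fell with A485 (log2 -0.98 ± 0.23, edgeR adjusted p = 0.00276) and was not called with TSA or SAHA. Fads1, a desaturase of polyunsaturated fatty acids, had 9.04, 16.8 and 11.1 CPM in TSA, 7.98, 5.47 and 4.85 CPM in SAHA, 15.00, 21.6 and 15.5 CPM in A485 and 1.85, 1.45 and 5.79 CPM in Vehicle. The A485 and TSA libraries lay above all Vehicle libraries and SAHA 2 and SAHA 3 lay below Vehicle 3. Fads1 rose with A485 (log2 2.52 ± 0.46, edgeR adjusted p = 0.000479) and TSA (log2 2.03 ± 0.46, edgeR adjusted p = 0.00174) and was not called with SAHA (log2 1.01 ± 0.46, edgeR adjusted p = 0.103). The SAHA value passed the threshold without Vehicle 3 (log2 1.90, edgeR adjusted p = 0.00311), with no filter on low counts (0.0473) and with limma-voom (0.031). Fads2, its neighbour in the pathway, was at or under 1.71 CPM in every library of the family and was not called against Vehicle, except with limma-voom for SAHA (adjusted p = 0.0366).

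TSA at 50 nM and SAHA at 500 nM share a hydroxamic acid group and a target class, but since doses differed, compound and dose cannot be told apart. Set directly against each other, 12 of 31 members were higher with TSA and 2 lower, or 45.2%, against 21.8% of all genes (9.79% higher and 12% lower). Over all genes 1791 were higher and 2191 lower with TSA, and with DESeq2 size factors 2250 were higher and 1705 lower. Of the 17 cholesterol enzymes tested, 10 were higher with TSA and 0 lower, and their median log2 difference was 0.78, beside 0.05 over all genes. Hsd17b7 (log2 1.64 ± 0.22, edgeR adjusted p = 0.000229), Sc5d (1.64 ± 0.27, edgeR adjusted p = 0.00107), Insig1 (1.42 ± 0.25, edgeR adjusted p = 0.00166) and Mvk (1.16 ± 0.27, edgeR adjusted p = 0.00733) had the smallest adjusted p among those higher with TSA. Lower with TSA than with SAHA were Elovl6 (log2 -1.87 ± 0.15, edgeR adjusted p = 8.35e-06) and Insig2 (-0.91 ± 0.27, edgeR adjusted p = 0.0293). For each of these 6 genes the TSA and SAHA libraries did not overlap. Leaving out 1 library at a time brought the count of 14 down to between 6 and 12. Over all genes the same fits called 2418 to 3358, beside 3982 in the main fit. Hmgcs1, Idi1, Lss, Cyp51, Msmo1, Dhcr7, Insig2 and Acly were the calls that failed in at least 1 of these, and the largest such adjusted p was 0.128, for Msmo1 without SAHA 1. Of the members not called here, Fdft1 and Scap, higher with TSA, each passed in 8 of 16 alternatives, with DESeq2 at an adjusted p of 0.0103 and 0.0117, and Acaca, Fads1 and Ebp in 1 or 2.

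TSA and A485, which act on opposite enzymes of histone acetylation, differed for 20 of 31 members, 18 higher and 2 lower with TSA, or 64.5%, against 63.5% of all genes. Of all genes 36.1% were higher with TSA and 27.4% lower, and the median log2 difference was 0.80 for the members and 0.27 for all genes (0.14 over all genes with scaling by library size alone and 0.39 with DESeq2 size factors). The smallest adjusted p values belonged to Hsd17b7 (log2 3.98 ± 0.24, edgeR adjusted p = 1.45e-08), Elovl6 (2.45 ± 0.16, edgeR adjusted p = 2.36e-08), Dhcr7 (3.19 ± 0.27, edgeR adjusted p = 2.68e-07) and Insig1 (3.13 ± 0.27, edgeR adjusted p = 3.26e-07). Lower with TSA were Insig2 (log2 -2.26 ± 0.28, edgeR adjusted p = 8.48e-06) and Fasn (-1.79 ± 0.37, edgeR adjusted p = 0.000828). Of the 17 cholesterol enzymes tested, 10 were higher and 0 lower, and of the 8 fatty acid enzymes 6 were higher and 1 lower. The count of 0 lower did not hold in every alternative. Without A485 1, Msmo1 (log2 -0.88, edgeR adjusted p = 0.00553), Nsdhl (log2 -1.03, edgeR adjusted p = 0.0101) and Sc5d (log2 -0.68, edgeR adjusted p = 0.0254) were lower with TSA. Msmo1 passed in 6 and Nsdhl in 5 of the 16 alternatives, library size alone, limma-voom and the fit with no filter among them for both. Calls that failed when a library was left out were Hmgcs1 and Cyp51 (without A485 1, adjusted p = 0.0806 and 0.0590), Mvd (without A485 3, 0.0552), Ebp (without A485 1 or TSA 2, 0.0740 and 0.0640), Scd2 (up to 0.0822, without A485 3) and Fads2 (up to 0.118, without TSA 2). Scd2 was also lost with library size alone (0.0814) and Fads2 with limma-voom (0.075).

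The 46 other genes of lipid synthesis, sterol transport and SREBP control that were listed beside the members were all tested. With TSA 13 of the 46 rose and 11 fell, where 31.6% and 26.6% of all genes did. With SAHA 7 rose and 11 fell (20.2% and 14% of all genes), and with A485 11 rose and 13 fell (21.4% and 24.2% of all genes). Abcg1, a sterol exporter, averaged 61.3 ± 4.31 CPM in TSA, 36.6 ± 4.13 CPM in SAHA and 5.32 ± 1.15 CPM in Vehicle (SD, n = 3), with a log2 fold change of 3.52 ± 0.25 (edgeR adjusted p = 9.79e-08) for TSA and 2.78 ± 0.25 (edgeR adjusted p = 2.39e-06) for SAHA. Agpat2, an acyltransferase of phospholipid and triglyceride synthesis, fell with TSA (log2 -3.27 ± 0.24, edgeR adjusted p = 1.14e-07) and A485 (log2 -2.91 ± 0.24, edgeR adjusted p = 3.77e-07), and Acacb, the mitochondrial acetyl-CoA carboxylase, rose with TSA (log2 3.12 ± 0.23, edgeR adjusted p = 1.34e-07). Acss2, which makes acetyl-CoA from acetate, averaged 42.3 ± 4.54 CPM in A485, 53.5 ± 3.56 CPM in SAHA and 193 ± 20.2 CPM in Vehicle and fell with both (log2 -2.19 ± 0.15, edgeR adjusted p = 9.71e-08 and -1.85 ± 0.15, edgeR adjusted p = 1.09e-06). Soat1, which esterifies cholesterol, fell with SAHA (log2 -2.23 ± 0.26, edgeR adjusted p = 2.09e-05). Slc25a1, which exports citrate from mitochondria, rose with A485 (log2 2.88 ± 0.20, edgeR adjusted p = 1.08e-07). Between TSA and SAHA 11 of the 46 were higher and 7 lower with TSA (9.79% and 12% of all genes). Between TSA and A485 18 were higher and 19 lower with TSA (36.1% and 27.4% of all genes).

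In the siRNA family, 9 of 32 members rose and 4 fell with siComb, or 40.6%, against 36.7% of all 19180 genes tested (19.6% rose and 17.1% fell). With siP300, 7 of 32 rose and 5 fell, or 37.5%, against 35.4% of all genes (19.7% rose and 15.7% fell). With siKat6a and with siKat6b 0 of 32 were called, against 0% of all genes with siKat6a and 0.0209% with siKat6b (0.0104% rose and 0.0104% fell). The median log2 fold change of the members was 0.40 for siComb, 0.33 for siP300, -0.05 for siKat6a and 0.02 for siKat6b, beside 0.09, 0.12, 0.00 and 0.02 over all genes. Scaling by library size alone moved the median of all genes to 0.36 for siComb, 0.45 for siP300 and 0.13 for siKat6b. It also moved the calls over all genes to 4944 higher and 2075 lower with siComb (3761 and 3275 with TMM), and to 5385 higher and 1611 lower with siP300 (3786 and 3003 with TMM). Of the 18 cholesterol enzymes, 5 rose and 2 fell with siComb, and 4 rose and 1 fell with siP300. Of the 8 fatty acid enzymes, 2 rose and 2 fell with siComb, and 1 rose and 3 fell with siP300. The summed level of the cholesterol enzymes was 811, 864 and 625 CPM in siComb and 560.0, 711 and 525 CPM in siP300, against 545, 475 and 477 CPM in siControl. All siComb libraries lay above siControl, and siP300 3 lay within the siControl range. The summed level of the 8 fatty acid enzymes was 563, 501 and 635 CPM in siComb and 519, 337 and 382 CPM in siP300, against 846, 749 and 782 CPM in siControl, with every siComb and siP300 library below siControl. Without Elovl6 the sum was 399, 327 and 363 CPM in siComb and 256, 207 and 237 CPM in siP300, against 419.6, 335 and 348.5 CPM in siControl, so siComb libraries overlapped the siControl range and siP300 libraries lay below it.

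Other measures moved with siComb and siP300 as well. Mitochondrial genes took 4.86 to 5.41% of counts in siComb and 4.94 to 6.99% in siP300, against 1.94 to 2.45% in siControl. The 10 morula markers, 9 with counts, summed to 395 to 656 CPM in siComb and 343 to 633 CPM in siP300, against 1226 to 1424 CPM in siControl. Blood and immune markers summed to 102 to 151 CPM in siComb (6 of 7 with counts) and 66.0 to 172 CPM in siP300 (5 of 7), against 12.6 to 16.8 CPM in siControl (6 of 7), with Hbb-bs at 0 throughout. Most of the siComb and siP300 sums came from Cd68 and Hba-a1, while Ptprc, Lyz2 and Adgre1 stayed at or under 2.39 CPM. Cumulus and granulosa markers summed to 5.77 to 20.4 CPM in siComb (8 of 10 with counts, Amh and Lhcgr at 0) and 7.29 to 57.4 CPM in siP300 (9 of 10, Fshr at 0), against 2.81 to 3.59 CPM in siControl (5 of 10). The highest sums rested on Hsd3b1 in single libraries, at 50.4 CPM in siP300 2 and 15.4 CPM in siComb 3. Oviduct and stroma markers, 4 of 6 with counts in each group, summed to 14.8 to 20.1 CPM in siComb and 9.86 to 16.3 CPM in siP300, against 12.6 to 17.6 CPM in siControl. The part of these markers in the results was not tested. MERVL-int set siP300 2, siComb 2, siKat6b 1 and siKat6b 3 apart from their groups, at 915, 990.2, 899 and 946 CPM. Without these 4 libraries 15 members were called with siComb and 16 with siP300, and the calls gained are named with their gene. Over all 21271 genes tested without them, 6809 were called with siComb and 6927 with siP300. The main fit called 7036 and 6789 of 19180.

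Sc5d, Cyp51, Msmo1 and Sqle, 4 enzymes of the part of the route from squalene to cholesterol, rose with both siComb and siP300. Sc5d had 148, 127 and 93.99 CPM in siComb and 69.00, 68.9 and 73.1 CPM in siP300, against 18.1, 19.4 and 19.96 CPM in siControl. The 3 groups did not overlap. Sc5d had a log2 fold change of 2.68 ± 0.29 (edgeR adjusted p = 4.5e-06) for siComb and 1.87 ± 0.28 (edgeR adjusted p = 0.000133) for siP300. Cyp51 had 94.4, 57.5 and 41.5 CPM in siComb and 48.3, 41.7 and 57.2 CPM in siP300, against 16.4, 16.9 and 19.6 CPM in siControl. Both groups lay above siControl and overlapped each other. Cyp51 had a log2 fold change of 1.87 ± 0.32 (edgeR adjusted p = 0.000291) for siComb and 1.48 ± 0.32 (edgeR adjusted p = 0.00204) for siP300. Msmo1 had 82.7, 109 and 61.8 CPM in siComb and 42.3, 51.7 and 45.6 CPM in siP300, against 31.1, 26.2 and 24.4 CPM in siControl, with no overlap between the groups. Msmo1 had a log2 fold change of 1.63 ± 0.24 (edgeR adjusted p = 9.25e-05) for siComb and 0.77 ± 0.24 (edgeR adjusted p = 0.0206) for siP300, and the siP300 call was lost without siControl 2 (adjusted p = 0.0671) or siControl 3 (adjusted p = 0.0797). Sqle had 64.4, 63.7 and 49.3 CPM in siComb and 39.7, 31.7 and 37.04 CPM in siP300, against 22.7, 18.9 and 18.1 CPM in siControl, again in 3 separate ranges. Sqle had a log2 fold change of 1.57 ± 0.26 (edgeR adjusted p = 0.000207) for siComb and 0.86 ± 0.26 (edgeR adjusted p = 0.0157) for siP300, and the siP300 call was lost without siControl 2 (adjusted p = 0.0566) or siControl 3 (adjusted p = 0.0621).

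In the mevalonate pathway, Mvd had 4.75, 5.57 and 6.55 CPM in siComb and 6.83, 8.304 and 7.52 CPM in siP300, against 18.1, 17.3 and 14.5 CPM in siControl. All siComb and siP300 libraries lay below every siControl library. Mvd fell with siComb (log2 -1.56 ± 0.25, edgeR adjusted p = 0.000188) and siP300 (log2 -1.14 ± 0.25, edgeR adjusted p = 0.00239). Pmvk had 14.6, 18.1 and 25.6 CPM in siComb and 16.5, 53.5 and 32.1 CPM in siP300, against 57.4, 42.5 and 47.5 CPM in siControl. The siComb libraries lay below siControl, whereas siP300 2 reached the siControl range. Pmvk fell with siComb (log2 -1.34 ± 0.34, edgeR adjusted p = 0.00598) and was not called with siP300 (log2 -0.53 ± 0.33, edgeR adjusted p = 0.225), except without siP300 2 (adjusted p = 0.0284). Acat2 rose with siComb (log2 1.19 ± 0.26, edgeR adjusted p = 0.00188) and passed for siP300 with library size alone (adjusted p = 0.027) and without siControl 1 (0.0351). Hmgcs1, Mvk, Idi1 and Fdps were not called with siComb or siP300, and neither were Fdft1, Lss, Tm7sf2, Nsdhl, Hsd17b7, Ebp and Dhcr7 further along the route. Some of these values passed in alternatives. Without the 4 libraries high in MERVL, Ebp was lower with siP300 (log2 -0.74, adjusted p = 0.00769) and siComb (log2 -0.56, adjusted p = 0.0381), Pmvk was lower with siP300 (log2 -1.01, adjusted p = 0.0154), and Hsd17b7 was higher with siP300 (log2 0.80, adjusted p = 0.0346). Without siP300 2 alone, Ebp (0.0195) and Hsd17b7 (0.0307) passed for siP300 in the same directions. With library size alone Hsd17b7 (adjusted p = 0.0179) and Mvk (0.0404) were higher with siP300 and Tm7sf2 (0.0439) was higher with siComb. Hsd17b7 also passed for siP300 with the filter at 5 CPM (0.0465), Tm7sf2 for siComb with all 27 libraries (0.0289) and with counts halved (0.0485), and Fdft1, higher with siComb, without a filter (0.0284) and with the compared groups alone (0.0381).

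Srebf1 and Srebf2 were not called in the siRNA family either. Srebf1 had 14.5, 8.26 and 12.6 CPM in siComb and 17.1, 8.096 and 13.02 CPM in siP300, against 10.6, 12.4 and 8.15 CPM in siControl. Srebf2 had 17.9, 9.55 and 12.4 CPM in siComb and 12.7, 12.4 and 14.8 CPM in siP300, against 27.2, 17.5 and 20.2 CPM in siControl. Srebf2 was lower in all siP300 libraries than in any siControl library, and siComb 1 overlapped siControl. The log2 fold change of Srebf1 was 0.19 ± 0.31 (edgeR adjusted p = 0.660) for siComb and 0.30 ± 0.31 (edgeR adjusted p = 0.471) for siP300, and that of Srebf2 was -0.70 ± 0.37 (edgeR adjusted p = 0.145) for siComb and -0.70 ± 0.37 (edgeR adjusted p = 0.144) for siP300. Insig1 had 50.5, 51.1 and 40.1 CPM in siComb and 48.2, 53.5 and 74.3 CPM in siP300, against 44.9, 31.1 and 35.4 CPM in siControl. The siP300 libraries all lay above siControl and siComb 3 did not. Insig1 was not called with siComb (log2 0.35 ± 0.24, edgeR adjusted p = 0.270) and rose with siP300 (log2 0.66 ± 0.24, edgeR adjusted p = 0.0404), a call lost without siControl 2 (adjusted p = 0.154), siControl 3 (adjusted p = 0.113) or siP300 3 (adjusted p = 0.199) and with the replicate number as a block (adjusted p = 0.0646).

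Scap, the escort of SREBP, had 26.6, 19.5 and 22.3 CPM in siComb and 23.5, 20.3 and 22.4 CPM in siP300, against 10.6, 16.3 and 11.8 CPM in siControl. All siComb and siP300 libraries lay above siControl. Scap rose with siComb (log2 0.82 ± 0.24, edgeR adjusted p = 0.0130) and siP300 (log2 0.78 ± 0.24, edgeR adjusted p = 0.0188). The siComb call was lost without siControl 1, siControl 3 or siComb 1 (adjusted p = 0.0722, 0.0554 and 0.0617), and the siP300 call without siControl 1 or siControl 3 (adjusted p = 0.0956 and 0.0735) or with no filter (0.0502). Scap shares 13.2% of its exon bases with a gene on the opposite strand. Insig2 rose with siComb (log2 1.07 ± 0.28, edgeR adjusted p = 0.00659) and was not called with siP300 (log2 0.45 ± 0.28, edgeR adjusted p = 0.215), except with library size alone (adjusted p = 0.0399). Stard4 had 16.1, 28.2 and 26.4 CPM in siP300, against 48.8, 47.6 and 41.97 CPM in siControl, without overlap. It fell with siP300 (log2 -0.97 ± 0.29, edgeR adjusted p = 0.0168), a call lost without siControl 1 (adjusted p = 0.0512) or siP300 1 (adjusted p = 0.0660), and with scaling by library size alone (adjusted p = 0.0913). With siComb it passed, lower, without the 4 libraries high in MERVL (adjusted p = 0.0395).

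Of the desaturases, Fads2 rose and Scd1 fell with both siComb and siP300. Fads2 had 17.5, 11.1 and 14.3 CPM in siComb and 6.09, 5.81 and 10.5 CPM in siP300, against 0.216, 0.634 and 0.204 CPM in siControl, or 112 to 195, 56 to 156 and 2 to 6 counts per library. The 3 groups did not overlap. Fads2 rose with siComb (log2 5.30 ± 0.64, edgeR adjusted p = 1.26e-05) and siP300 (log2 4.37 ± 0.62, edgeR adjusted p = 8.51e-05). Fads1 had 22.8, 18.9 and 17.2 CPM in siComb and 6.64, 8.72 and 11.9 CPM in siP300, against 5.07, 5.495 and 3.26 CPM in siControl, also in separate ranges. Fads1 rose with siComb (log2 2.09 ± 0.39, edgeR adjusted p = 0.000556) and was not called with siP300 (log2 0.98 ± 0.38, edgeR adjusted p = 0.0526). The siP300 value passed in 7 of 17 alternatives, with adjusted p between 0.0189 with library size alone and 0.0478 with DESeq2 size factors, and 0.0316 with DESeq2, 0.0317 with the filter at 5 CPM, 0.038 with counts halved, 0.0389 without siP300 1 and 0.0419 without the 4 libraries high in MERVL. Scd1 had 16.9, 31.8 and 25.2 CPM in siComb and 12.4, 14.9 and 12.8 CPM in siP300, against 85.1, 63.2 and 69.2 CPM in siControl. The siP300 libraries were lowest, and both groups lay below siControl. Scd1 fell with siComb (log2 -1.56 ± 0.26, edgeR adjusted p = 0.000202) and siP300 (log2 -2.44 ± 0.26, edgeR adjusted p = 7.93e-06).

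Scd2 had 202, 136 and 175 CPM in siComb and 93.8, 76.8 and 78.3 CPM in siP300, against 199, 147 and 167 CPM in siControl. The siP300 libraries lay below siComb and siControl, and siComb overlapped siControl. Scd2 fell with siP300 (log2 -1.04 ± 0.22, edgeR adjusted p = 0.00193) and was not called with siComb (log2 0.00 ± 0.22). Elovl6 had 164, 174 and 272 CPM in siComb and 263, 129.5 and 144 CPM in siP300, against 426, 414 and 434 CPM in siControl. All siComb and siP300 libraries lay below siControl, with siP300 1 and siComb 3 the highest of them. Elovl6 fell with siComb (log2 -1.06 ± 0.24, edgeR adjusted p = 0.00253) and siP300 (log2 -1.25 ± 0.24, edgeR adjusted p = 0.000923). Acly, Acaca and Fasn were called with neither.

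Set against siP300, siComb differed for 1 of 32 members, Scd2 (log2 1.04 ± 0.22, edgeR adjusted p = 0.0403), or 3.12%, against 0.798% of all genes (0.516% higher with siComb). Over all genes 99 were higher and 54 lower with siComb, and with scaling by library size alone 47 were higher and 52 lower. That call was lost without siP300 2 (adjusted p = 0.0647), siP300 3 (0.102), siComb 1 (0.140) or siComb 3 (0.0832), and with library size alone (0.064), limma-voom (0.172), the replicate block (0.0721) or these groups alone (0.252). The members' median log2 difference was 0.29, beside -0.03 over all genes. The libraries of Sc5d and Msmo1 did not overlap, and neither did those of Sqle, Acat2, Fads1 and some other members. For Sc5d and Msmo1 the 95% intervals of the log2 difference ran over 0.27 to 1.33 and 0.39 to 1.33. These intervals rest on the standard error alone and are not adjusted for the genes tested. The edgeR adjusted p was 0.192 and 0.107, so neither was called. With no filter Sc5d (adjusted p = 0.0133), Msmo1 (0.00934) and Scd1 (0.012) were higher with siComb, and with DESeq2 Msmo1 (0.0248) and Scd1 (0.0337). Over all genes 733 of 32933 were called with no filter and 618 of 19180 with DESeq2, beside 153 of 19180 in the main fit.

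For siKat6a, 0 members also had an unadjusted p under 0.05, and DESeq2 and limma-voom called 0. Scd1 (log2 -0.49 ± 0.25) had the smallest unadjusted p of the members, with an adjusted p of 1. For siKat6b, Scd2 and Scd1 had the smallest unadjusted p of the members. Scd2 had 87.8, 87.5 and 118 CPM in siKat6b, against 199, 147 and 167 CPM in siControl, and Scd1 had 27.6, 45.4 and 55.02 CPM in siKat6b, against 85.1, 63.2 and 69.2 CPM in siControl. All siKat6b libraries lay below siControl for both genes. The log2 fold changes were -0.80 ± 0.22 (edgeR adjusted p = 0.193) and -0.76 ± 0.25 (edgeR adjusted p = 0.272). DESeq2 called 1 member with siKat6b, Scd2 (adjusted p = 0.0323), limma-voom called 0, and with no filter Scd2 (0.00476) and Scd1 (0.0481) passed. Over all genes DESeq2 called 237 of 19180 with siKat6b, limma-voom 10, and the fit with no filter 755 of 32933. The main fit called 4 of 19180, so these settings were looser over all genes too. Srebf1, Srebf2 and Insig1 had log2 fold changes of 0.60 ± 0.31, -0.33 ± 0.36 and -0.16 ± 0.24 with siKat6a and of 0.29 ± 0.31, -0.76 ± 0.37 and -0.29 ± 0.24 with siKat6b, none of them called.

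Of the 46 other pathway genes, 16 rose and 5 fell with siComb (19.6% and 17.1% of all genes). With siP300 13 rose and 5 fell (19.7% and 15.7% of all genes). With siKat6a or siKat6b 0 of the 46 were called (0% and 0.0209% of all genes). Fntb, a subunit of the farnesyltransferase, averaged 297 ± 46.02 CPM in siComb, 228 ± 45.9 CPM in siP300 and 67.6 ± 8.44 CPM in siControl (SD, n = 3) and rose with both (log2 2.14 ± 0.19, edgeR adjusted p = 6.45e-07 and 1.76 ± 0.19, edgeR adjusted p = 6.37e-06). Hacd3, a dehydratase of fatty acid elongation, rose with siComb (log2 2.18 ± 0.25, edgeR adjusted p = 8.98e-06) and siP300 (log2 1.75 ± 0.25, edgeR adjusted p = 8.4e-05), and its relative Hacd2 rose with siP300 (log2 1.35 ± 0.20, edgeR adjusted p = 0.000110). Slc25a1 averaged 47.9 ± 9.38 CPM in siComb, 21.5 ± 2.51 CPM in siP300 and 8.05 ± 1.48 CPM in siControl. It rose with siComb (log2 2.57 ± 0.27, edgeR adjusted p = 2.9e-06) and was the 1 of the 46 called between siComb and siP300 (log2 1.15 ± 0.25, edgeR adjusted p = 0.0436). Over all genes 0.798% were called between siComb and siP300.

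A485 blocks p300 and its paralogue CBP for hours, while the siP300 injection preceded collection by days, so the agent, its targets and the time cannot be told apart between them. The difference between the effects, A485 against Vehicle minus siP300 against siControl, was tested in 1 fit of all 27 libraries. It passed the threshold for 8 of 32 members, 1 above and 7 below 0, or 25.0%, against 26.5% of all 20744 genes tested (10.4% above and 16.1% below). The median was -0.30 for the members and -0.31 over all genes. With scaling by library size alone the median of all genes was -0.56 and 1396 genes lay above and 4143 below 0, beside 2150 above and 3343 below with TMM. Elovl6 fell in both comparisons but further with A485, by a difference of -4.23 ± 0.30 (edgeR adjusted p = 4.82e-10). Insig1 and Hsd17b7 fell with A485, while with siP300 Insig1 rose and Hsd17b7 was not called, and the differences were -2.60 ± 0.37 (edgeR adjusted p = 1.11e-05) and -2.34 ± 0.36 (edgeR adjusted p = 3.85e-05). Insig2 was the member above 0, with 1.42 ± 0.38 (edgeR adjusted p = 0.00683). Fads2, near 0 in both inhibitor groups and above it in every siP300 library, gave -6.10 ± 1.27 (edgeR adjusted p = 0.000909). Fdps, Ebp and Dhcr7 were the others below 0. Fdps, near 0 in every group, was lost without Vehicle 3 (adjusted p = 0.0576). Ebp was lost in 6 of the fits that left out 1 library, up to an adjusted p of 0.0887 without siP300 2, and Dhcr7 in 9 of them, up to 0.198 without siP300 2. Without the 4 libraries high in MERVL both were lost (adjusted p = 0.104 for Ebp and 0.172 for Dhcr7), and Dhcr7 was lost with DESeq2 size factors (0.0516), limma-voom (0.0999) and the replicate block (0.059). Leaving out 1 library at a time gave 6 to 9 member calls, and 4425 to 5457 over all genes, beside 5493 in the main fit. Of the members not called, Acat2 (below 0) passed in 7 alternatives and Fads1 (above 0) in 5, among them without Vehicle 3 (adjusted p = 0.00417), while Acaca passed without A485 1 (0.0497) and Pmvk without siP300 1 (0.0209), both below 0. Besides Elovl6, the members Sc5d, Cyp51, Sqle, Scd1, Scd2 and Stard4 were called in the same direction in both comparisons. Their differences did not pass the threshold. For Sc5d, Cyp51, Sqle and Scd1 the unadjusted 95% intervals of the differences were -0.91 to 0.67, -0.88 to 0.76, -0.28 to 1.02 and -0.96 to 0.52. The differences were 0.04 for Scd2 and -0.20 for Stard4.

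**Figure D4:**
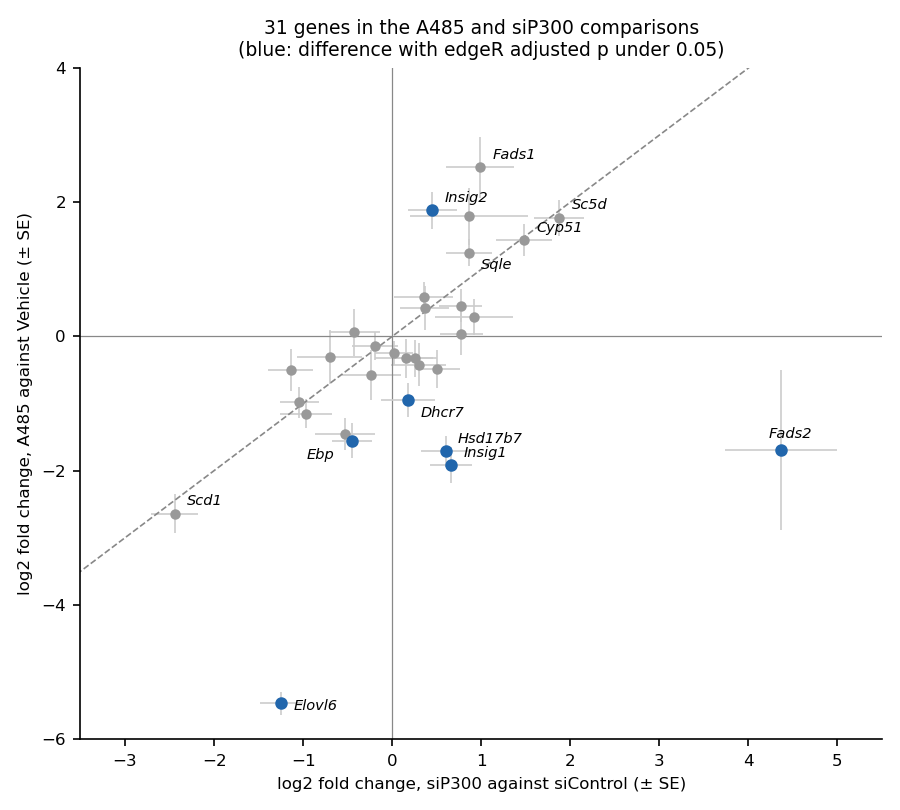
log2 fold change of 31 genes with A485 against Vehicle (vertical axis) and with siP300 against siControl (horizontal axis), each ± its standard error. Blue points are genes whose 2 effects differed with an edgeR adjusted p under 0.05 and the dashed line marks equal effects. Elovl6 lies below the line at -5.47 with A485 and -1.25 with siP300, while Sc5d and Cyp51 lie on or beside it.

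Of the 46 other pathway genes, 4 lay above and 15 below 0 in this difference, where 10.4% and 16.1% of all genes did. Acss2 (-2.14 ± 0.30, edgeR adjusted p = 8.62e-06), Fntb (-1.64 ± 0.25, edgeR adjusted p = 2.96e-05) and Elovl7, an elongase, (-2.14 ± 0.35, edgeR adjusted p = 8.38e-05) had the smallest adjusted p.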

How the data were processed

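RNA from pools of wild-type mouse embryos was sequenced as 27 libraries in 9 groups of 3. The authors deposited whole-number counts of reads per gene, and the counts of the 27 sample tables equal the series-wide table used here. Per the submitters' processing notes, the tools were STAR 2.7.11a, featureCounts, Subread 2.0.6, MultiQC and Scanpy 1.8.2, and the builds named, with no role stated, are mm10 and GRCh38. How strands and read pairs were counted is not given in the sources used here. Between 83.3 and 85.9% of the counts above 0 were even in each library, so an alternative with halved counts was run. Library totals ran over 7557591 to 11988857 counts. Amplified reads without molecular identifiers are not independent molecules, so the precision of low counts covers counting error only.

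The members and lists were chosen with earlier results of these data known. Counts were tested with edgeR 4.0.16 in R 4.3.3 (TMM scaling, filterByExpr with a minimum count of 10, quasi-likelihood F-test), in 1 fit of 12 inhibitor libraries, 1 fit of 15 siRNA libraries and, for the difference between the A485 and siP300 effects, 1 fit of all 27. P-values were adjusted over all genes by Benjamini and Hochberg, with a threshold of 0.05. Alternatives used DESeq2 1.42.0, limma 3.58.1, other scalings and filters, other sets of libraries, a replicate block and leaving out each library. Genes were named by smallest adjusted p, up to 6 per direction against a control, up to 4 between treated groups and up to 3 of the other pathway genes, and Srebf1, Srebf2 and Insig1 always. Other members named had a value that a statement on their role needed and were chosen after their values were seen. Tested on simulated data, the SAHA fit (15155 genes) recovered 3.03% of genes changed 1.5-fold, 22.4% of those changed 2-fold and 69.7% of those changed 4-fold, with 5 false of 68 calls. The siP300 fit (16751 genes) recovered 1.49%, 23.9% and 62.1%, with 2 false of 60 calls. Only 66 or 67 genes were changed at each fold, while 34.2% and 35.4% of all genes were called in the data. The adjustment was therefore stricter in the simulation, and its recovery is not that of the real fits. Libraries of a group differed by more than sampling noise (chi-square per degree of freedom 8.35 to 49.2), so none was counted as a duplicate. Gene positions and shared exon bases came from GENCODE (GRCm38), and promoters from RefSeq. Figures were drawn with matplotlib 3.10.9.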

Additional observations from a re-analysis of the deposited data

Results flagged for a closer look

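The 8 members below had effects of A485 (against Vehicle) and of siP300 (against siControl) that differed in the fit of all 27 libraries with an edgeR adjusted p under 0.05. Each value is the log2 fold change with A485 minus that with siP300. The value was -4.23 for Elovl6, -2.60 for Insig1, -2.34 for Hsd17b7, -1.11 for Ebp, -1.13 for Dhcr7 and 1.42 for Insig2. Fads2 gave -6.10, on 0 to 2 counts per library in A485 and 0 to 6 in Vehicle, against 56 to 156 in siP300 and 2 to 6 in siControl. Fdps gave -6.94, a fitted value that is no bound, since all A485 libraries were at 0 and Vehicle libraries held 0 to 12 counts, against 6 to 23 in siP300 and 1 to 9 in siControl, and the call was lost without Vehicle 3 (edgeR adjusted p = 0.0576).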

How the results depend on the processing

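For the 114 calls of single members, 1995 results were compared, which include for each call its main value held to a fold of at least 2. Of the 1995, 1811 kept their direction and stayed called, 184 kept the direction only and 0 reversed. The 184 include calls under 2-fold, whose adjusted p stayed under 0.05. The main value held to 2-fold was not refitted and could not reverse. The number of members called changed by more than 1.5 times, or was recomputed without single libraries, as follows. For SAHA it was 7 in a fit of all 27 libraries, 6 at a fold of at least 2 and 6 to 10 without 1 library. Over all genes the fit of all 27 libraries called 6483 of 20744 for SAHA. For TSA it was 13 at 2-fold and 18 to 20 without 1 library, and for A485 it was 15 to 16 without 1 library. Between TSA and SAHA it was 7 at 2-fold and 6 to 12 without 1 library, and between TSA and A485 it was 13 and 19 to 22. For siP300 it was 7 at 2-fold and 8 to 15 without 1 library, and for siComb 12 to 13. For siKat6b it was 1 with DESeq2, 2 without a filter and 0 to 0 without 1 library, and for siKat6a 0 to 0. Over all genes siKat6b gave 237 calls with DESeq2 and 755 without a filter. Between siComb and siP300 it was 3 with DESeq2, 4 without a filter, 0 with library size alone, limma-voom, the replicate block or these groups only, and 0 to 1 without 1 library. Over all genes that comparison gave 618 calls with DESeq2 and 733 without a filter. It gave 99 with library size alone, 35 with limma-voom, 48 with the replicate block and 0 with these groups only. For the difference between the A485 and siP300 effects it was 6 to 9. Without 1 library, calls over all genes numbered 4691 to 5227 for SAHA, 7058 to 8002 for A485 and 9656 to 9970 for TSA. They numbered 2418 to 3358 between TSA and SAHA and 10899 to 11724 between TSA and A485. In the siRNA family they numbered 5224 to 6830 for siComb, 4716 to 6507 for siP300 and 1 to 160 for siKat6b. Between siComb and siP300 they numbered 26 to 165, and for the difference between effects 4425 to 5457.

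Same-numbered libraries did not deviate together throughout (r of -0.40 to 0.50 over 48 pairs, 11 of them over 0.1), so the numbers were not taken as pairs. In the inhibitor family most of these r were above 0, up to 0.284 for Vehicle 3 and SAHA 3. The r of 0.50 belonged to siP300 2 and siComb 2, both high in MERVL. With the replicate block 12 members were called for SAHA, 16 for A485, 20 for TSA, 15 between TSA and SAHA, 20 between TSA and A485, 13 for siComb, 11 for siP300, 0 for siKat6a and siKat6b, and 7 for the difference between effects. Of 18297 genes the block called 6187 for SAHA, 8189 for A485 and 10528 for TSA. It called 4083 between TSA and SAHA and 11500 between TSA and A485. Of 19180 genes it called 6475 for siComb, 6133 for siP300, 0 for siKat6a and 2 for siKat6b. For the difference between effects it called 5203 of 20744. Depth limits Fdps, Fads2 and Tm7sf2, which held few counts in control libraries, and the causes of the changes above were not tested.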
